A study of Mus musculus with 4 samples.

Results

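The 10 imprinted genes described here lie outside the Dlk1-Gtl2 region of chromosome 12 and were followed in single mouse bone marrow cells sorted as haematopoietic stem cells (HSC). They are 10 of the 24411 genes in the deposited tables: Igf2r, H19 and Grb10, taken here as maternally expressed, Zdbf2, Ndn, Impact, Peg3, Plagl1 and Peg13, taken as paternally expressed, and Gnas, whose transcripts differ in parental origin. They were chosen by name, with their UMI counts per library and genotype already known, so the genotype differences below are a description of these libraries. The study compared cells of mice labelled Mat KO with cells of wild-type (WT) mice in a series on small nucleolar RNAs of the Dlk1-Gtl2 locus. The labels give no age, strain or deleted segment. Each genotype had 2 libraries, and 188 of 384 barcodes were kept at 1000 or more detected genes, 44 and 48 of them Mat KO, with 48 in either WT library. Values for the 4 libraries are given throughout in the order Mat KO replicate 1, Mat KO replicate 2, WT replicate 1 and WT replicate 2.

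An imprinted gene is expressed from the maternal or the paternal copy only, according to a DNA methylation mark laid down in the egg or the sperm. Zinc finger proteins such as Zfp57, with Trim28, hold the mark through the divisions of the early embryo. Many imprinted genes act on growth: Igf2r clears the growth factor Igf2, Grb10 is an adaptor that dampens insulin and IGF receptor signalling, and H19 and Igf2 share enhancers. Several imprinted genes, Ndn and H19 among them, are known from work on quiescent HSC.

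In these libraries each transcript was counted once, as a unique molecular identifier (UMI) read next to its 3′ end, which carries no information on the parental copy or on the start site used. That matters for Gnas, as described below. It also matters for Zdbf2, because RefSeq (GRCm38.p6) gives Zdbf2 2 start sites 72911 bases apart on chromosome 1, plus strand. The upstream one lies inside Gpr1, and is known for a long transcript of the early embryo. The 250 bases before each start, chr1:63200108-63200357 and chr1:63273019-63273268, are shown because Zdbf2 was the gene with the widest gap between the genotypes. Capitals mark TGCCGC, the hexamer that Zfp57 binds when methylated, on either strand (GCGGCA on the other strand).
Zdbf2 upstream start: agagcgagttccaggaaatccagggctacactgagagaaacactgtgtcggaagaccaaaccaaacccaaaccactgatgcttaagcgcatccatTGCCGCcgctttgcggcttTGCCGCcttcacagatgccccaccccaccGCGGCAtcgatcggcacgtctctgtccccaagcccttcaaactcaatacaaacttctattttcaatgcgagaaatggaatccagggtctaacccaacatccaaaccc
Zdbf2 downstream start: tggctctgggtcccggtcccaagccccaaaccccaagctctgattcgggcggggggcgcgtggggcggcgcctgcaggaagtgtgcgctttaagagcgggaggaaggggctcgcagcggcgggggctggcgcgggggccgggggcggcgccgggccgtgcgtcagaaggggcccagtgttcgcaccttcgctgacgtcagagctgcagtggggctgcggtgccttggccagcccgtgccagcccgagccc
The upstream window held 3 matches and the downstream window none. Of 32851 RefSeq promoter windows of this length, 8.68% held at least 1 match and 0.0731% held 3 or more. Of the 12 windows found for 7 of the 10 genes, the only other match was 1 in Plagl1. The window search was added after the counts had been seen, and a match is a string of letters, not a measured site.

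H19 is a noncoding RNA that also serves as the precursor of miR-675. Its mature forms lie at chr7:142577112-142577133 (5p) and chr7:142577078-142577099 (3p), minus strand, inside H19, and are shown as the part of H19 that acts as a small RNA. Mature miRNAs have no poly(A) tail, so counts primed with oligo-dT bear on H19 and not on them. Capitals mark the seed, bases 2 to 8.
mmu-miR-675-5p: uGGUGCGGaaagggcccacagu
mmu-miR-675-3p: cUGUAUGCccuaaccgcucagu
The hairpin has an entry of its own, Mir675, which had 0 UMIs in every library.

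The libraries differed in depth and in the cells they held. The kept cells had 1900319, 1768647, 3183279 and 3253608 gene UMIs in all and medians of 33612.5, 27845, 53092.5 and 51437 per cell. Shares of cells with a UMI are therefore also given at equal depth, as the expected share when each of the 170 cells with 8800 or more UMIs is thinned to 8800. Meg3, a maternally expressed RNA of the Dlk1-Gtl2 locus, stood at 18.4, 32.8, 52.8 and 47.0 UMIs per 1000000 (CPM), so it was present in both libraries labelled Mat KO. Each library held cells with Y-linked transcripts alone (19, 10, 15 and 11) and cells with Xist alone (10, 15, 13 and 15), and 12, 23, 20 and 21 cells held both. Why cells held both was not tested, so these classes are named by their transcripts and not as sexes. Cells with mature lineage markers (18, 7, 7 and 8) carried 49.96%, 28.7%, 16.9% and 21.1% of the UMIs. The other cells, called lineage-low, numbered 26, 41, 41 and 40. Of the markers fixed for HSC, 19 of 19 were found in each genotype, at 0.183% to 0.243% of UMIs in Mat KO and 0.211% to 0.270% in WT. Granulocyte and monocyte markers made up 0.616% to 3.70% in Mat KO (18 of 19 found, Ctsg at 0) and 0.372% to 0.737% in WT (19 of 19). B-lymphoid markers made up 0.153% to 0.154% in Mat KO (14 of 15, Ms4a1 at 0) while WT had 0.0681% to 0.13% (15 of 15).

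Across the 10 genes, Zdbf2 was the one with a wide gap between the genotypes, and none passed the test. Of the 10, 9 had enough UMIs to be tested, and 0 of 9 passed at an adjusted p of 0.05 in edgeR (quasi-likelihood fit, Benjamini-Hochberg over 10663 genes). Over all genes 0.075% were called higher in Mat KO and 0.0% lower. At an unadjusted p under 0.05, 1 of the 9 was called (Zdbf2), against 7.82% of all genes. DESeq2 called 1 of the 9, again Zdbf2, and called 0.937% of 10456 genes higher. Without the filter on low counts edgeR also called Zdbf2, with 0.835% of 14246 genes higher. Log2 fold changes, Mat KO against WT, were above 0 for 3 genes (Zdbf2, Plagl1, Peg13) and below 0 for 6. Their median was -0.26, beside -0.01 over all genes. Both Mat KO libraries lay below both WT libraries in CPM for 5 genes (Igf2r, Grb10, Gnas, Ndn, Impact), as in 21.3% of all genes tested. They lay above both for 2 genes (Zdbf2, Peg13), as in 17.8%. The nearest libraries of the genotypes were almost level for Igf2r (11.05 against 11.06), Impact (52.0 against 52.2) and Ndn (21.0 against 21.4). These CPM do not use the TMM factors of the test, so such small gaps carry no direction. The labels do not say whether replicates came from separate animals, so the p-values cannot be read as measuring spread between animals. They rest on the spread between 2 libraries per genotype, which edgeR estimates partly from all genes tested. Part of that spread may be technical. In sums over a library, fewer cells of a type and less RNA per cell cannot be told apart.

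**Figure D1:**
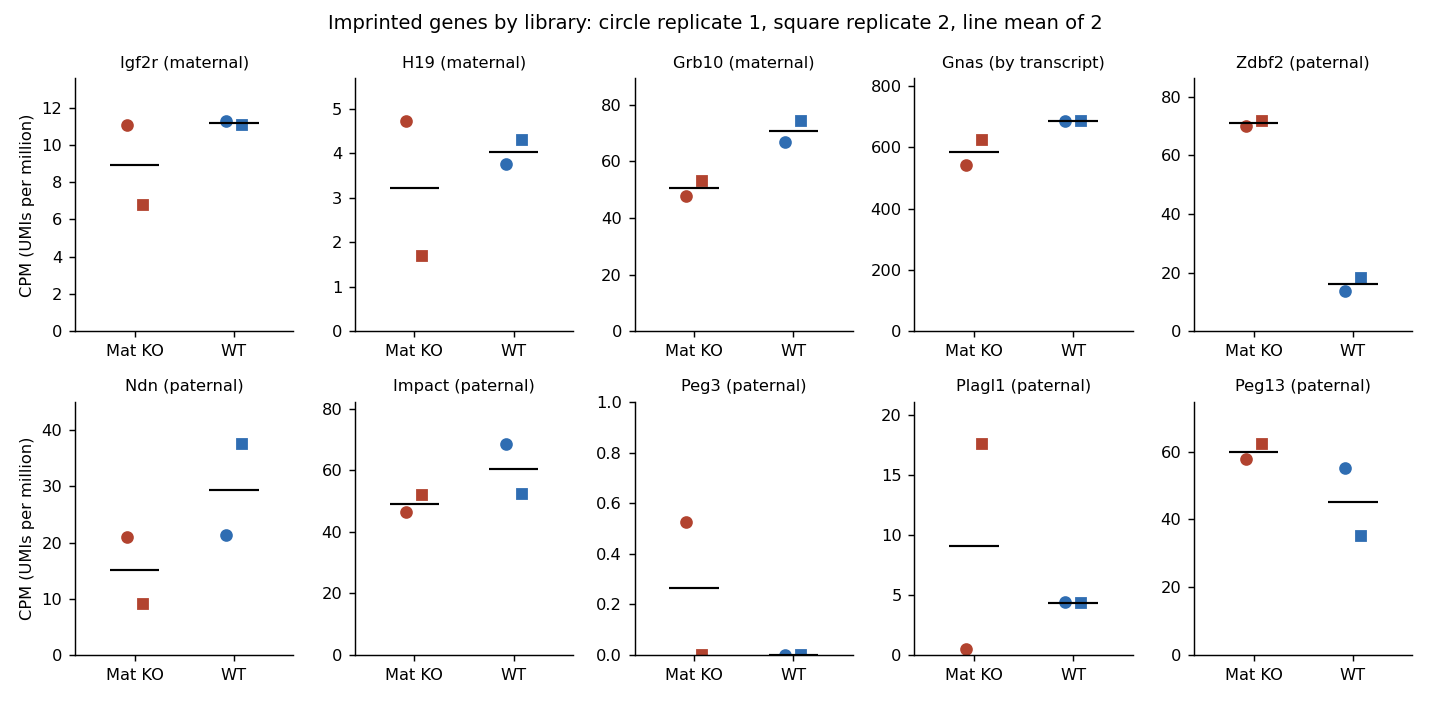
Level of each gene in CPM (vertical axes, linear, each panel on its own scale) in the 2 Mat KO and 2 WT libraries, with a line at the mean of each pair. Zdbf2 stands at 70.0 and 71.8 in Mat KO against 13.8 and 18.1 in WT, while Peg3 has a single UMI in 1 library.

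The maternally expressed genes come first. Grb10 (chr11:11930499-12037428, minus strand) was the most abundant of the 3, with 47.9, 53.1, 66.9 and 74.4 CPM from 91, 94, 213 and 242 UMIs. Both Mat KO libraries lay below both WT libraries. Grb10 UMIs were found in 20 of 44, 20 of 48, 28 of 48 and 25 of 48 cells, and at equal depth in 28.3%, 30.3%, 36.4% and 33.0% of cells. The log2 fold change was -0.45 ± 0.41 (SE, n = 2 libraries per genotype), with an adjusted p of 0.847 in edgeR's test. Among lineage-low cells Grb10 stood at 87.3, 73.8, 78.3 and 91.5 CPM. There the libraries of the genotypes overlapped and the log2 fold change was -0.02 ± 0.43 (SE).

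Igf2r (chr17:12682406-12769706, minus strand) encodes the receptor that binds Igf2 and carries it to the lysosome. It had 11.05, 6.78, 11.31 and 11.06 CPM from 21, 12, 36 and 36 UMIs in 7, 3, 6 and 8 cells. Mat KO replicate 1 and both WT libraries were almost level, and Mat KO replicate 2 was low. A single cell held 52.4%, 58.3%, 47.2% and 44.4% of its UMIs. Its log2 fold change of -0.30 ± 1.03 (SE) turned to 0.51 ± 1.16 in lineage-low cells.

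H19 (chr7:142575530-142578146, minus strand) was rarer, at 4.74, 1.70, 3.77 and 4.30 CPM from 9, 3, 12 and 14 UMIs in 5, 3, 6 and 5 cells. The Mat KO libraries lay on either side of the WT libraries. The log2 fold change of -0.30 had an SE of 1.56, so this depth leaves its direction unresolved. It became 0.24 without Mat KO replicate 2. Igf2, the growth factor gene beside H19 that is expressed from the paternal copy, had 2, 1, 1 and 19 UMIs.

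Gnas (chr2:174284320-174346744, plus strand) encodes the stimulatory G protein alpha subunit, which couples receptors to cyclic AMP. It was found in nearly every cell, 41 of 44, 47 of 48, 48 of 48 and 48 of 48. The level was 543, 624, 687 and 687 CPM from 1032, 1103, 2188 and 2236 UMIs, lower in both Mat KO libraries than in both WT libraries. The log2 fold change was -0.20 ± 0.22 (SE; adjusted p = 0.885, edgeR), and it was 0.08 after thinning all cells to equal depth. Its antisense RNA Nespas had 0, 0, 3 and 7 UMIs. UMIs at the shared 3′ end do not separate the biallelic Gs alpha transcript from the imprinted Nesp and Gnasxl transcripts.

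Zdbf2 (chr1:63200358-63314576, plus strand), a zinc finger gene expressed from the paternal copy, was the gene with the clearest separation of the libraries. It had 70.0, 71.8, 13.8 and 18.1 CPM from 133, 127, 44 and 59 UMIs, so the groups were far from overlapping. The level was 4.52-fold higher in Mat KO, a log2 fold change of 2.18 ± 0.50 (SE; 95% interval 1.07 to 3.28), rank 54 of 10663 genes by p. The adjusted p was 0.221 in edgeR's test. It was 0.0157 by DESeq2 and 0.0237 in edgeR without the filter on low counts. Over 12 alternatives the log2 fold change ran from 1.98 to 2.69 and the adjusted p from 0.0157 to 0.491.

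The share of cells with Zdbf2 was also higher in both Mat KO libraries. The counts were 13 of 44, 17 of 48, 10 of 48 and 12 of 48 cells, or 29.5% (exact 95% binomial interval 16.8 to 45.2), 35.4% (22.2 to 50.5), 20.8% (10.5 to 35.0) and 25.0% (13.6 to 39.6). These intervals cover counting error only, and they overlapped. At equal depth the shares were 26.9%, 23.8%, 9.91% and 13.6%, both Mat KO libraries above both WT libraries. The leading cell held 27.8%, 49.6%, 34.1% and 37.3% of the Zdbf2 UMIs, and with the leading cell of each library left out the log2 fold change was 2.19. The cells were also split by Xist and Y-linked transcripts. In cells with Y-linked transcripts alone Zdbf2 stood at 73.0, 57.6, 15.9 and 5.70 CPM from 59, 25, 16 and 3 UMIs. In cells with Xist alone it stood at 56.9, 10.8, 6.94 and 7.07 CPM from 27, 5, 4 and 6 UMIs, so Mat KO replicate 2 was near the WT libraries there. In cells with both it stood at 94.8, 111, 15.0 and 26.8 CPM from 47, 97, 24 and 50 UMIs. Cells with neither numbered 3, 0, 0 and 1 and held 0 Zdbf2 UMIs. This split was added after the counts had been seen.

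**Figure D2:**
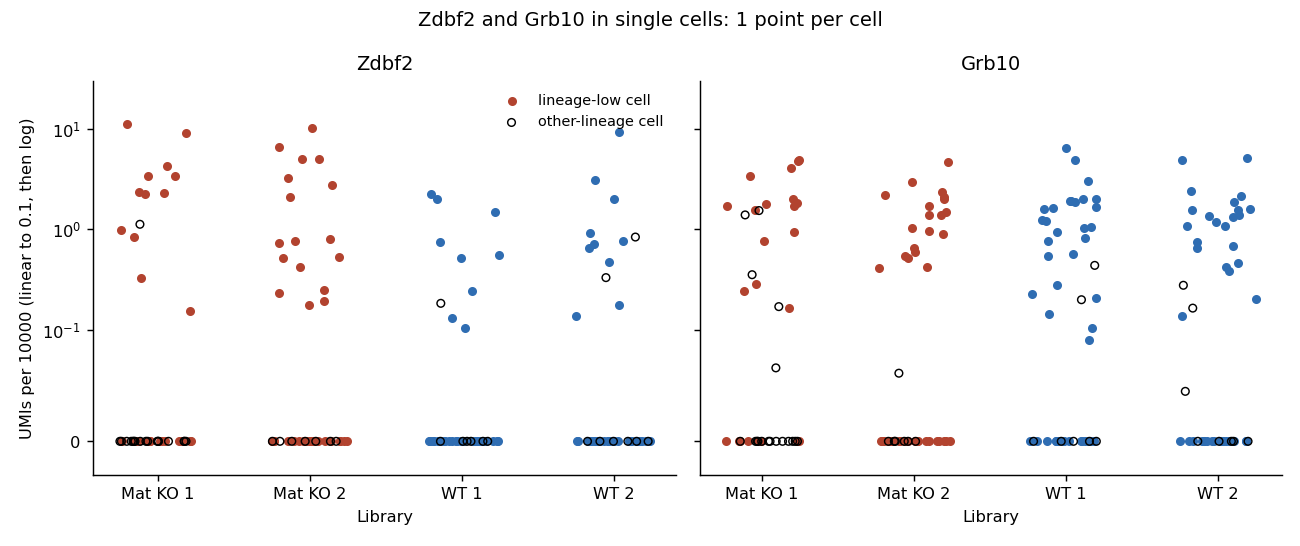
Zdbf2 and Grb10 in each kept cell as UMIs per 10000 (vertical axis, linear to 0.1 and logarithmic above), by library, with lineage-low cells filled in the colour of their genotype (red Mat KO, blue WT) and cells with mature lineage markers as open circles. Zdbf2 was detected in 13 and 17 Mat KO cells and 10 and 12 WT cells, nearly all of them lineage-low.

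Of 7 genes within 250 kb of Zdbf2, 3 were tested and none passed; their log2 fold changes ran from -0.51 to 0.91. Eef1b2, a translation elongation factor subunit 19872 bases away, had 828, 874, 1263 and 1207 CPM and a log2 fold change of -0.51. Ino80d, a chromatin remodelling subunit, had 70.0, 124, 63.5 and 42.1 CPM and a log2 fold change of 0.91 (adjusted p = 0.667, edgeR). Ino80dos, a noncoding RNA next to Ino80d, had 5, 27, 2 and 1 UMIs, higher in both Mat KO libraries, and was under the filter. Gpr1, in which the upstream start lies, and Adam23 had 0 UMIs in the 4 libraries. The neighbour search was added after the counts had been seen.

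Impact (chr18:12954690-12992950, plus strand) encodes an inhibitor of the stress kinase GCN2. It stood at 46.3, 52.0, 68.5 and 52.2 CPM from 88, 92, 218 and 170 UMIs in 18, 20, 25 and 27 cells. Mat KO replicate 2 and WT replicate 2 were almost level. Its log2 fold change was -0.26 ± 0.44 (SE), -0.02 in lineage-low cells and 0.42 after thinning, so its direction moved with the cells and depth used. Osbpl1a, a sterol-binding protein gene 12819 bases away, had 77.9, 112, 189 and 151 CPM and a log2 fold change of -0.81 (adjusted p = 0.602, edgeR).

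Peg13 (chr15:72805602-72810324, minus strand) is a noncoding RNA inside Trappc9, a gene taken here as maternally expressed. Peg13 had 57.9, 62.2, 55.3 and 35.0 CPM from 110, 110, 176 and 114 UMIs. The Mat KO libraries were above both WT libraries, by a small step over WT replicate 1. At equal depth 24.6%, 27.1%, 31.3% and 21.6% of cells held it, and there the genotypes overlapped. The log2 fold change was 0.44 ± 0.46 (SE) in all cells and 0.85 ± 0.48 in lineage-low cells (adjusted p = 0.743, edgeR). Trappc9 had 23.7, 43.5, 17.0 and 44.6 CPM. Its UMIs and those of Peg13 met in 27 cells, 31.8% of the 85 cells with Peg13 and 33.0% of the rest. Strand use in the counting is not stated in the labels, and Peg13 lies within Trappc9, so reads of the pair could be split by the counting. The same holds for Igf2r and its antisense RNA Airn, which had 29, 9, 37 and 41 UMIs and shared 3 cells with Igf2r.

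Ndn (chr7:62348277-62349928, plus strand), which encodes the growth suppressor necdin, had 21.0, 9.05, 21.4 and 37.5 CPM from 40, 16, 68 and 122 UMIs in 9, 6, 13 and 16 cells. Mat KO replicate 1 and WT replicate 1 were level, and the others lay far to either side. Its log2 fold change was -0.94 ± 0.75 (SE; adjusted p = 0.814, edgeR).

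Plagl1 (chr10:13090832-13131694, plus strand), a zinc finger growth regulator, had 0.526, 17.5, 4.40 and 4.30 CPM from 1, 31, 14 and 14 UMIs in 1, 4, 2 and 4 cells. The Mat KO libraries stood at both extremes. In Mat KO replicate 2 a single cell held 74.2% of the UMIs, and the log2 fold change of 1.09 ± 1.53 (SE) became -2.94 without that library. Hymai, an RNA inside Plagl1, had 6, 0, 0 and 10 UMIs. Peg3 (chr7:6703892-6730462, minus strand), a zinc finger gene, had 1 UMI in Mat KO replicate 1 and 0 in the other libraries. At these depths 0 UMIs are compatible with levels of up to 1.70 CPM in Mat KO replicate 2, 0.942 in WT replicate 1 and 0.922 in WT replicate 2. It was not tested.

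**Figure D3:**
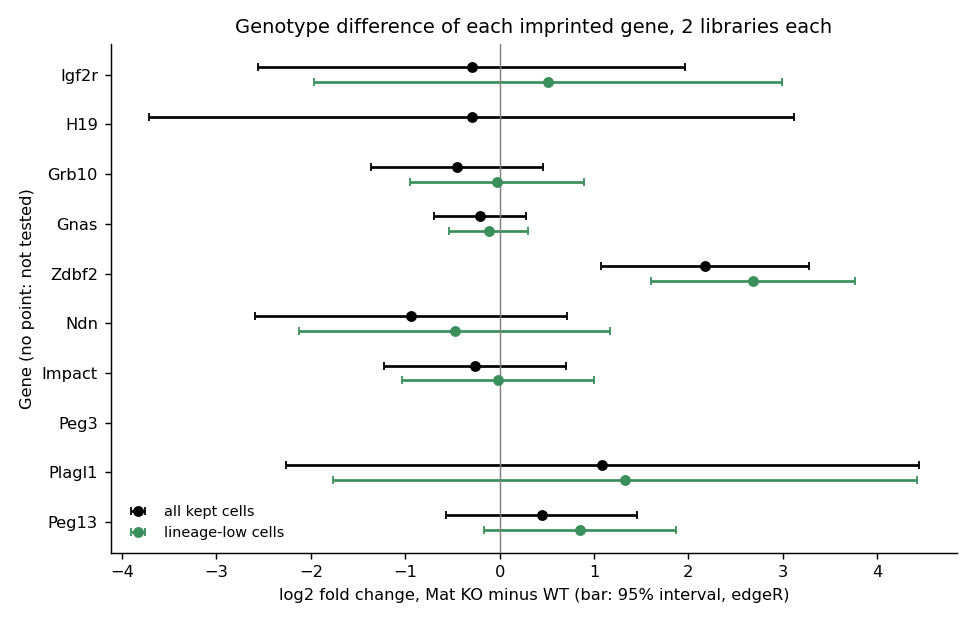
Log2 fold change of each gene, Mat KO minus WT (horizontal axis), in all kept cells (black) and in lineage-low cells (green). Bars are 95% intervals derived from edgeR's F statistic. Peg3 was not tested, nor was H19 in lineage-low cells. Only the Zdbf2 intervals lie wholly above 0, while those of Grb10 and Impact are centred near 0 in lineage-low cells.

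The order of the genes differed between the genotypes mainly through Zdbf2. UMIs next to the 3′ end do not grow with transcript length, so CPM was set side by side between genes without scaling by length. Counting may still differ by gene, as described above for Peg13, Igf2r and Gnas, so the order is approximate. In WT the mean levels in CPM (± SD, n = 2) were 687 ± 0.0739 for Gnas, 70.6 ± 5.28 for Grb10, 60.4 ± 11.5 for Impact, 45.2 ± 14.3 for Peg13 and 29.4 ± 11.4 for Ndn. Zdbf2 followed at 16.0 ± 3.05, Igf2r at 11.2 ± 0.173, Plagl1 at 4.35 ± 0.0672 and H19 at 4.04 ± 0.377. Among these neighbours Grb10 and Impact overlapped, as did Impact and Peg13, Peg13 and Ndn, and Plagl1 and H19 at 14 UMIs each in WT replicate 2. In Mat KO Zdbf2 stood next to Gnas at 70.9 ± 1.29, followed by Peg13 at 60.0 ± 3.05, Grb10 at 50.5 ± 3.72 and Impact at 49.2 ± 4.04. Grb10 and Impact overlapped there too.

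Summed by parental origin, the 3 maternally expressed genes had 63.7, 61.6, 82.0 and 89.7 CPM, lower in both Mat KO libraries. The 6 paternally expressed genes had 196, 213, 163 and 147 CPM, higher in both. Without Zdbf2 the paternal sum was 126, 141, 150 and 129 CPM, and the genotypes overlapped. In lineage-low cells the log2 ratio of the maternal sum, Mat KO over WT, was -0.0043, and Grb10 made up most of that sum.

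**Figure D4:**
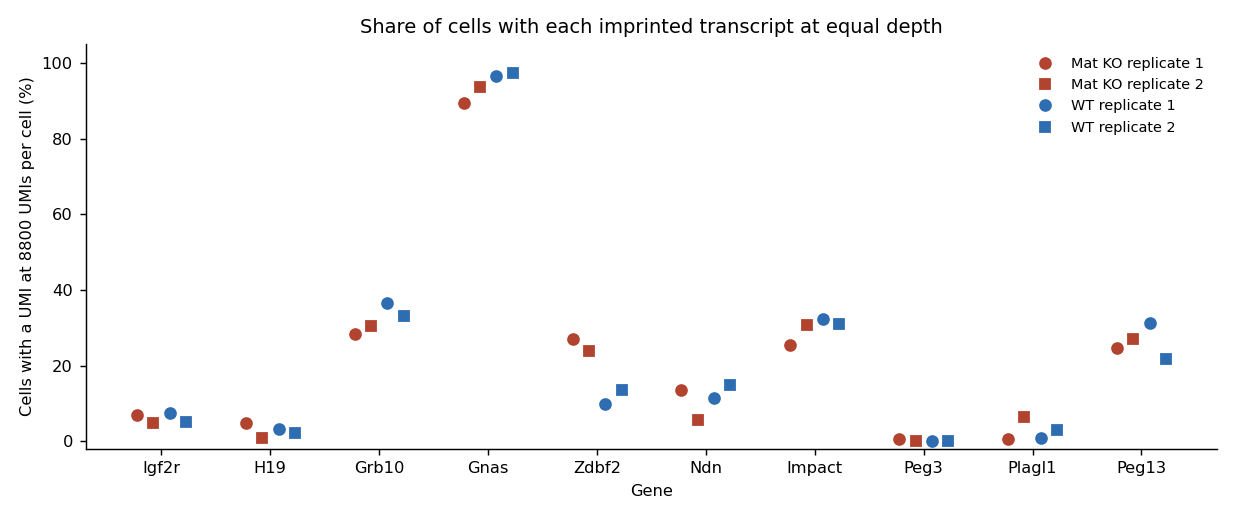
Expected share of cells with at least 1 UMI of each gene after thinning to 8800 UMIs (vertical axis, percent), by library. Cells under 8800 UMIs are left out, which leaves 39, 41, 46 and 44 cells. Zdbf2 is at 26.9% and 23.8% in Mat KO against 9.91% and 13.6% in WT, while the Peg13 and Igf2r libraries of the genotypes interleave.

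The 6 genes detected in at least 40 cells were compared between cell classes: Grb10, Zdbf2, Peg13, Ndn, Impact and Gnas. In CPM each was lower in cells with mature lineage markers than in lineage-low cells in 4 of 4 libraries. The share of all genes with this pattern was not computed, so it is not read as a trait of imprinted genes. Shares of cells did not always follow. Peg13 was found in 38.5% of lineage-low and 50% of other-lineage cells of Mat KO replicate 1, and Impact in 55% and 62.5% in WT replicate 2. Grb10 stood at 8.43, 1.97, 11.1 and 10.2 CPM in other-lineage cells, below its lineage-low level in every library. Zdbf2 had 1 UMI of 949311, 0 of 508194, 1 of 539160 and 2 of 685976, or at most 2.92 CPM. In lineage-low cells Zdbf2 had 139, 101, 16.3 and 22.2 CPM. The genotype gap of Zdbf2 therefore lay in lineage-low cells, with 12 of 26, 17 of 41, 9 of 41 and 10 of 40 cells carrying it. Its log2 fold change there was 2.69 ± 0.51 (SE; adjusted p = 0.112, edgeR), where 0.0398% of 10057 genes were called in either direction.

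Peg13 had 90.4, 87.3, 62.4 and 39.7 CPM in lineage-low cells and 25.3, 0, 20.4 and 17.5 CPM in other-lineage cells. Ndn, itself 1 of the HSC markers, had 37.9, 12.7, 24.6 and 47.5 CPM against 4.21, 0, 5.56 and 0. Impact had 70.5, 60.3, 77.2 and 60.0 CPM against 22.1, 31.5, 26.0 and 23.3. In ratio Gnas stepped least, with 635, 661, 725 and 735 CPM against 451, 531, 503 and 509. Hlf, a transcription factor of HSC, had 779, 569.6, 694 and 374 CPM in lineage-low cells and 57.9, 88.5, 29.7 and 30.6 in the others, which shows the size of step that an HSC gene made here. All Plagl1 UMIs lay in lineage-low cells. The classes were set after the marker shares had been seen, and other-lineage cells numbered 7 or 8 in 3 of the libraries, so no test was made. The share of UMIs from other-lineage cells was higher in both Mat KO libraries. Its part in the lower Grb10, Gnas, Ndn and Impact levels was not tested beyond the lineage-low values given here.

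**Figure D5:**
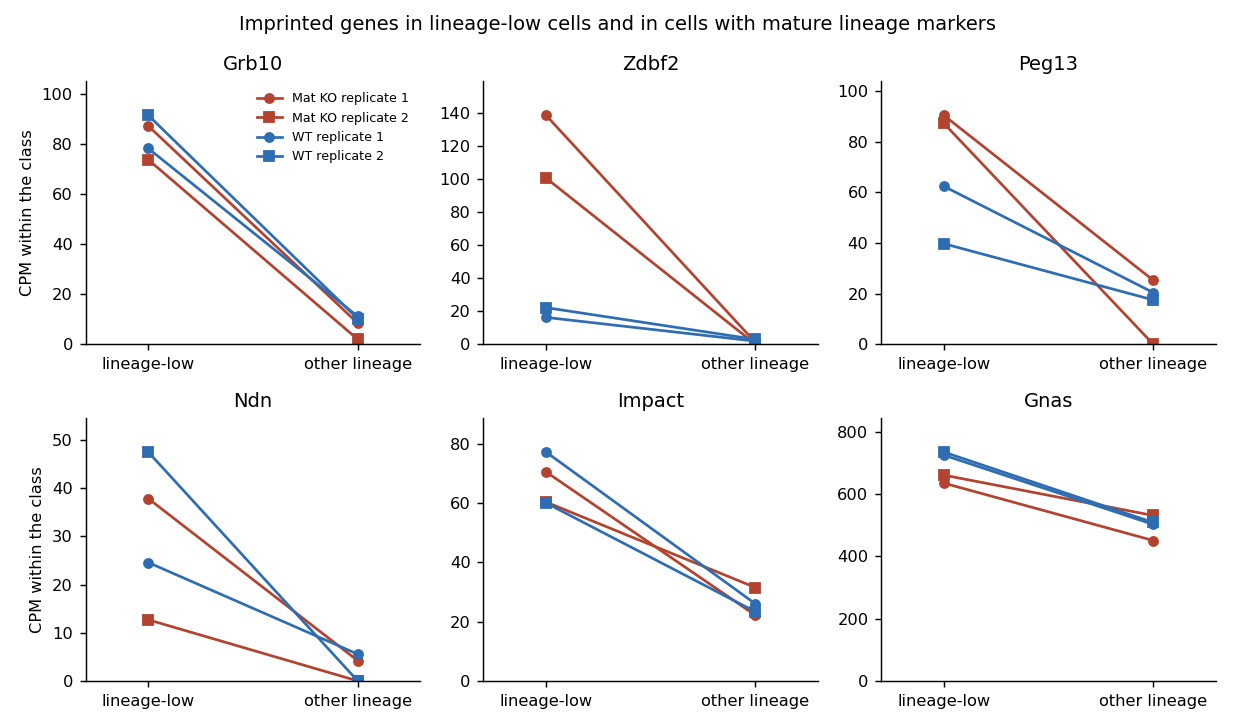
CPM within lineage-low cells and within cells with mature lineage markers (horizontal axis) for 6 genes, with 1 line per library, red for Mat KO and blue for WT; vertical axes start at 0. Every line goes down to the right, and the Zdbf2 lines of Mat KO start at 139 and 101 against 16.3 and 22.2 in WT.

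Lineage-low cells above the 75th percentile of cell-cycle transcript share numbered 2, 2, 6 and 14. Peg13 stood at 35.8, 0, 7.28 and 7.59 CPM in them and at 97.7, 95.7, 81.8 and 62.1 in the other lineage-low cells, lower in 4 of 4 libraries. Grb10 had 8.94, 0, 66.9 and 37.0 CPM against 97.7, 80.9, 82.3 and 129, also lower in 4 of 4. With 2 such cells in each Mat KO library these are counts of very few cells. No other member was lower in all libraries. In WT replicate 1 Impact (109 against 65.9 CPM), Ndn (37.8 against 19.9) and Gnas (749 against 716) were higher in the cells above that percentile. The share of all genes lower in 4 of 4 libraries was not computed, so it is not read as a trait of Peg13 and Grb10. S phase markers made up 0.113% to 0.132% of UMIs in Mat KO and 0.171% to 0.244% in WT, with 20 of 20 found in both. G2 and M markers made up 0.264% to 0.430% in Mat KO and 0.276% to 0.289% in WT, also with 20 of 20 found, and there the genotypes overlapped. The part of either list in the genotype differences was not tested.

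Within single cells the genes were sparse. Leaving out Gnas, a cell held UMIs of 2.11, 1.88, 2.44 and 2.48 of the other 9 genes on average, and 1.36, 1.29, 1.22 and 1.09 after thinning. A single lineage-low cell of Mat KO replicate 2 led its library for 4 genes at once, with 63 UMIs of Zdbf2, 23 of Plagl1, 14 of Impact and 11 of Ndn. It ranked 7 of 48 by total UMIs and held 3.45% of the library. In WT replicate 1 the deepest cell, with 9.02% of the library, led for Gnas, Zdbf2, Ndn and Plagl1, with 344, 15, 14 and 13 UMIs. These cells were picked out after their values were seen.

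Cells with and without Meg3 UMIs were compared at equal depth (47 and 123 cells, pooled over libraries and genotypes). Impact was found in 39.98% of cells with Meg3 and 26.3% of cells without. Its share was higher with Meg3 in 4 of 4 libraries (61.8% against 18.8%, 33.7% against 29.9%, 39.7% against 27.3% and 34.6% against 29.6%). These shares rest on 4, 5, 12 and 10 cells with Impact among the kept cells with Meg3. In CPM Impact stood at 236, 75.7, 53.6 and 57.7 with Meg3 and at 26.2, 46.6, 79.4 and 49.2 without. Its level in WT replicate 1 thus differed in direction from its share. No other member had a higher share with Meg3 in 4 of 4 libraries. With Meg3 the share was lower for Grb10 in Mat KO replicate 2 (19.9% against 33.3%). It was also lower for Gnas in WT replicate 2 (94.4% against 98.5%) and Peg13 in Mat KO replicate 1 (14.5% against 26.4%). How many of all genes follow Impact in this was not computed, so it is not read as a link with Meg3. Zdbf2 was found in 62.9%, 38.8%, 11.6% and 4.05% of cells with Meg3 and in 20.4%, 19.6%, 8.74% and 17.6% of cells without. Among all 8, 10, 19 and 15 kept cells with Meg3, 5, 5, 3 and 2 held Zdbf2. Its equal-depth shares likewise rest on at most these numbers. The share was higher with Meg3 in both Mat KO libraries and in WT replicate 1, and lower in WT replicate 2. In CPM, cells with Meg3 had 104, 109, 6.70 and 2.58 and cells without had 66.4, 63.3, 19.03 and 26.8, so in WT replicate 1 the share and the level differed in direction.

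The genes most like each of 5 members over 188 cells, by Pearson correlation of log2(UMIs per 10000 + 1) after removing library means, were all weak matches among 6484 genes. They were Cd63, Ccnt1 and Hlf for Grb10 (r = 0.37, 0.34 and 0.34) and Ppan, Rasgef1b and Ifitm1 for Zdbf2 (0.35, 0.33 and 0.31). For Peg13 they were Irf7, Shisa5 and Mecom (0.33, 0.33 and 0.31), for Ndn Stx6, Cdip1 and Capn5 (0.36, 0.33 and 0.32) and for Impact Pex6, Ahi1 and Pcnxl3 (0.33, 0.29 and 0.29). Cells share library and depth, and in counts this sparse the values are no finding.

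Other imprinted genes gave the setting. Parental origin in these cells was not measured. Of 30 other genes taken here as maternally expressed, 19 were tested, 8 with log2 fold changes above 0 and 11 below (median -0.15). None passed in edgeR's test, and 3 had an unadjusted p under 0.05 there, beside 7.82% of all genes. Cd81, a tetraspanin, had 162, 178, 261 and 246 CPM (log2 fold change -0.54). Tspan32, another tetraspanin, had 99.5, 88.2, 169.6 and 173 CPM (-0.84; adjusted p = 0.572, edgeR). Both were lower in both Mat KO libraries, and Nap1l4 (0.21) and Ube3a (-0.10) overlapped. Commd1, with 35.3, 62.8, 116 and 129.7 CPM and a log2 fold change of -1.29, was named after its values were seen, as was Gatm (-2.42).

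Of 26 other genes taken here as paternally expressed, 25 were in the deposited counts and 10 were tested, 1 above 0 and 9 below (median -0.33). None passed in edgeR's test and 0 had an unadjusted p under 0.05. Kcnq1ot1, the noncoding RNA that silences a cluster on chromosome 7, was the most abundant at 399, 572, 622 and 583 CPM (-0.28). Sgce, which encodes a sarcoglycan, had 12.6, 14.7, 34.2 and 37.5 CPM (-1.36; adjusted p = 0.678, edgeR), lower in both Mat KO libraries. Casd1 (-0.88) was also lower in both, and H13 (-0.10) overlapped. None of these 4 was higher in both Mat KO libraries, unlike Zdbf2.

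Partners of the members were given from fixed lists, and no gene of them passed in edgeR's test. Insulin and IGF signalling had 9 of 15 tested genes above 0 and 6 below (median 0.13). Igf1r, the growth factor receptor, had 157, 229.6, 196 and 152 CPM (0.19), and Nedd4 (-0.22), Pik3r1 (-0.03) and Grb2 (-0.02) overlapped likewise. Keepers and readers of imprinting marks had 6 of 21 above 0 and 15 below (median -0.37). Trim28, the corepressor that Zfp57 recruits, had 240.5, 191, 302 and 273 CPM (-0.38), lower in both Mat KO libraries, while Ctcf (0.08), Arid4b (-0.08) and Smchd1 (0.05) overlapped. Hells, a remodeller that is also on the S phase list, had 91.0, 68.4, 115 and 195 CPM (-0.93; adjusted p = 0.588, edgeR) and was named after its values were seen.

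The Gs alpha and cyclic AMP list around Gnas had 12 of 22 above 0 and 10 below (median 0.09). Gnai2, an inhibitory G protein subunit, had 555, 512, 390.5 and 347 CPM (0.57; adjusted p = 0.599, edgeR), higher in both Mat KO libraries, as was Prkar1a (0.43). Gng5 (-0.15) and Pde4b (0.18) overlapped. The GCN2 list around Impact had 6 of 10 above 0 and 4 below (median 0.18). Atf4, the transcription factor of that response, had 477, 344, 416 and 328 CPM (0.17), and Ppp1r15a (-0.15), Eif2s1 (-0.20) and Ddit3 (0.35) overlapped. Trib3, an Atf4 target, had 32.1, 16.4, 2.51 and 5.22 CPM (2.66; adjusted p = 0.565, edgeR) and was named after its values were seen.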

How the data were processed

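Single-cell libraries were made with a modified STRT-seq protocol, with cell barcodes and UMIs added by the oligo-dT primer, per the labels' protocols. The values deposited by the authors are raw UMI counts per gene and barcode, with no normalization. TopHat2 2.0.12, HTSeq and the mm10 build are named per the submitters' processing notes, without their roles. Spike-in counts (95 entries) were left out of library sizes.

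Cells with at least 1000 genes were kept. They had been picked singly, so no doublet caller was run. Counts were summed per library and tested with edgeR 4.0.16 in R 4.3.3 (TMM, filterByExpr, quasi-likelihood test, Benjamini-Hochberg at 0.05). The fit held 10663 genes. The SE of a log2 fold change was taken as its absolute value over the square root of edgeR's F statistic. The 95% intervals of fold changes use that SE and the t distribution. CPM is UMIs per 1000000 gene UMIs of the cells used. A count of 0 allows up to 3 counts. Alternatives were other size factors, DESeq2 1.42.0, no filter, a replicate block, thinned counts, fewer cells and leaving out libraries. On simulated data for this comparison (10334 genes), 7 of 94 genes changed 4-fold and 83 of 95 changed 16-fold were recovered, with 6 false calls. The members and gene lists were chosen with earlier results of these data known.

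A cell counted as other lineage with 3 or more markers of 1 lineage and 1% of its UMIs (granulocyte and monocyte, erythroid) or 0.2% (B-lymphoid, T and NK). T and NK markers made up 0.00939% to 0.0269% of UMIs in Mat KO and 0.00236% to 0.00802% in WT (6 of 9 found in each, Cd3e and Gzmb at 0 in both). Erythroid markers made up 0.0679% to 0.0718% and 0.111% to 0.203% (7 and 8 of 13, the 5 globin genes at 0 in both). Megakaryocyte, mast cell and basophil, and stroma and endothelium markers made up at most 0.0520% of UMIs in any library. Cells above the 75th percentile of S phase and G2 and M marker share were called cycling. Named genes were the members, the 4 most abundant of each list, and the 3 most alike per member found in at least 40 cells (those of Gnas are not reported here). Genes named outside this rule are marked in the text. The 48 barcode numbers in use were shared by all libraries.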

Additional observations from a re-analysis of the deposited data

Results flagged for a closer look

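Igf2r moved in opposite directions between cell classes in the genotypes. Its CPM in lineage-low cells minus other-lineage cells was 13.7 and 6.76 in the Mat KO libraries, while the WT values were -15.4 and -2.60. Other-lineage cells of 1 library held at most 13 Igf2r UMIs, and the difference between the genotypes was not tested.

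Zdbf2 did the same with the cell cycle. Its CPM in lineage-low cells above the 75th percentile of cell-cycle transcripts minus the other lineage-low cells was -86.4 and -110 in Mat KO, while the WT values were 7.52 and 4.19. Each Mat KO library had 2 cells above that limit, and in WT a single cell held 15 of 15 and 19 of 26 of the Zdbf2 UMIs above it. This difference was not tested either.

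Outside the kept cells, the 4 barcodes of Mat KO replicate 1 with under 1000 genes held 4 Gnas UMIs. Barcodes 49 to 96 held at most 1 UMI of any member per library.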

How the results depend on the processing

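The count of called genes, 8 as reported, was 149 without the filter on low counts, 120 with DESeq2 (207 adjusted p missing), 109 with a replicate block, 5 in cells with at least 2000 genes, 4 in lineage-low cells, 3 after thinning and 0 with each gene's leading cells left out (740 at an unadjusted p under 0.05). Leaving out 1 library gave 17 to 123, with the lone library assumed to vary like the pair: 69 without Mat KO replicate 1, 123 without Mat KO replicate 2, 34 without WT replicate 1 and 17 without WT replicate 2. Of the members 1, Zdbf2, was called without the filter, with the replicate block and with DESeq2 (log2 fold changes 2.17, 2.19 and 2.20; adjusted p 0.0237, 0.0260 and 0.0157), and 0 under the other alternatives. Directions reversed for Igf2r in lineage-low cells (0.51), Gnas and Impact after thinning (0.081 and 0.42), Plagl1 with the replicate block (-0.052) and without Mat KO replicate 2 (-2.94), and H19 without Mat KO replicate 2 (0.24). Leaving out 1 library gave Plagl1 -2.94 to 2.04. Leaving out either Mat KO library gave H19 -1.19 to 0.24, and without either WT library H19 was under the filter and not tested. The cause was not tested. The other 92 of 98 member fold changes kept their direction. The log2 ratio of summed maternal CPM was -0.54 after thinning, -0.0043 in lineage-low cells and -0.37 without leading cells, and that of the paternal sum 0.83, 0.79 and 0.26. No shared shift of same-numbered libraries was seen: the deviations of the replicates numbered 1 correlated at -0.017. This single value cannot tell whether such libraries were prepared together. At this depth H19, Plagl1 and Peg3 rest on 0 to 31 UMIs per library.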
